A study of Mus musculus with 8 samples.

Results

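The 8 genes described here encode the core parts of the inflammasomes of mouse macrophages: the sensors Nlrp3, Aim2 and Nlrc4, the adaptor Pycard, the inflammatory caspases Casp1 and Casp4, and the caspase substrates Il18 and Gsdmd. The rule took them by name and set no threshold on their counts, and all 8 have a row among the 23143 gene symbols of the count table. The table holds RNA from RAW264.7 cells, an established mouse macrophage line, of which 1 culture was left unstimulated (0 min) and 7 cultures were treated with 100 ng/ml of lipopolysaccharide (LPS, from the outer membrane of gram-negative bacteria; here from E. coli) for 15, 30, 45, 60, 75, 90 or 120 min. All 8 cultures are of the same line, carry no genetic change named in the labels and received no further agent that the labels name. The labels call the RNA both total and cytoplasmic, whereas the paper states that total RNA was isolated for this time course. Each time point has 1 library.

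Inflammasomes are protein platforms that form in the cytosol when a sensor meets a sign of infection or damage. The sensor gathers caspase-1, in most cases through the adaptor ASC, the product of Pycard, and the caspase then cuts the precursors of the cytokines IL-1 beta and IL-18 and the pore-forming protein gasdermin D. In macrophages, LPS is known as a priming signal, which acts through TLR4 and NF-kappa B before a further signal sets off assembly. RNA levels, as measured here, bear on priming and not on assembly or on cleavage.

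Library totals ranged from 100250892 to 159077286 counts, and counts were divided by median-of-ratios size factors (0.71 to 1.23) to give normalized counts. Rn45s, the gene of the ribosomal RNA precursor, took 8.18% to 9.11% of the counts in the 0, 30, 60 and 120 min libraries. In the 15, 45, 75 and 90 min libraries its share was 12.96% to 20.53%. Whether these reads came from the precursor or from mature ribosomal RNA left after depletion was not tested. The 4 libraries with the lower share are also given alone where a result rests on the others. All 6 macrophage markers examined had 5528 counts or more in every library, whereas Cd3g, Col1a1, Col1a2, Epcam and Cdh1, which mark T cells, fibroblasts and epithelial cells, had no count in any, and the other 4 markers of T cells, B cells and neutrophils found in the table had 69 counts or fewer. As these are bulk samples, a fall in a transcript and a loss of cells that carry it cannot be told apart. Intervals given with single values are exact 95% intervals that cover counting error only. A gene is termed called where 2 libraries differed by more than 0.5 on the log2 scale with an unadjusted p under 0.05 in the study's own test of 2 libraries. This describes a pair of libraries without replicates, not a pair of conditions.

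Of the sensors, Nlrp3 was the member that changed most. NLRP3 answers to many kinds of membrane and ion disturbance, and its amount is held to be limiting in unprimed macrophages. The gene lies at chr11:59541569-59566955 (GRCm38, plus strand, 10 exons in its longest matched GENCODE transcript). All 58-base reads from its transcript are unique to it. Its normalized counts in time order (from the unstimulated library to the last, the order kept for every gene) were 3981, 4748, 15164, 40932, 48566, 49112, 51613 and 58263. The 15 min library lay close to the unstimulated one, and every later library lay far above both. The ratio to 0 min was 1.19 (1.15 to 1.24) at 15 min and 3.81 (3.69 to 3.93) at 30 min, then 10.3 (9.97 to 10.6) at 45 min and finally 14.6 (14.2 to 15.1). Most of the change fell between 15 and 45 min, when the normalized count changed 8.62-fold (8.37 to 8.88), against 1.42-fold (1.41 to 1.44) between 45 and 120 min. Nlrp3 was called higher than at 0 min in the 6 libraries from 30 to 120 min. Among the 10494 genes whose normalized counts averaged 100 or more, its log2 ratio to 0 min ranked 51 from the top at 30 min, 39 by 60 min and 57 at 120 min.

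The slope of Nlrp3 over time was 2.07 ± 0.51 on the log2 scale per hour (± SE, edgeR's quasi-likelihood test over 8 libraries, adjusted p = 0.0104). Its error starts from the scatter of the 8 cultures around a straight line and so includes the flatter part after 45 min. The test draws this scatter toward that of genes with similar counts. In the 4 libraries with the lower share of Rn45s alone the slope was 1.88 with an adjusted p of 0.076, so the call was lost with 4 libraries, while the ratios at 60 and 120 min stayed called.

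The 250 bases before the annotated start of Nlrp3 are shown because this was the member with the largest response to LPS, and sites for NF-kappa B were looked for in them. The motif searched on both strands was the loose form of a kappa B site, which fixes GGG at one end and CC at the other with any 5 bases between, and capitals mark its matches. The sequence is from RefSeq's promoter windows (GRCm38.p6), chr11:59541319-59541568, plus strand.
Nlrp3: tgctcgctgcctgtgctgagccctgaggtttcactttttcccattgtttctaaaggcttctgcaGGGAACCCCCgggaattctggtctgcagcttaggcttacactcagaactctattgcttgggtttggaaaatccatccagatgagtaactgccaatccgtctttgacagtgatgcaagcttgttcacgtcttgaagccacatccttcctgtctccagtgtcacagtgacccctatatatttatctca
It holds 1 stretch that matches on both strands, from position -186. A second annotated start of Nlrp3, at which the window covers 59542436 to 59542735, has another match at position -8. This motif is common: 50.8% of all 32851 windows of 300 bases (250 before and 50 after a start) hold at least 1 match, so its presence near Nlrp3 does not set the gene apart.

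Aim2 and Nlrc4 took other courses. AIM2 binds double-stranded DNA in the cytosol. In time order, Aim2 (chr1:173349547-173466040, plus strand, 12 exons) had normalized counts of 1354, 1537, 1669, 2326, 1668, 1805, 1918 and 1841. The 45 min library stood above all others and the 0 min library below. The ratio of 45 to 0 min was 1.72 (1.61 to 1.83), which was called, and that of 60 to 45 min was 0.717 (0.673 to 0.764), which was not. No other library was called against 0 min, although the count at 120 min was 1.36-fold that at 0 min (1.27 to 1.45). The 45 min library is one of those with much Rn45s (16.64% of its counts), and the part of this in the peak was not tested. With total counts as the scale, Aim2 had no maximum. The slope was 0.18 ± 0.11 per hour (edgeR, adjusted p = 0.223). It depended on the libraries used, with 0.21 without the 45 min library (adjusted p = 0.0109), 0.08 without the 0 min library (adjusted p = 0.638) and 0.27 without the 120 min library (adjusted p = 0.185). The span annotated for Aim2 overlaps Cadm3 on the other strand, which had no count in any library.

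NLRC4 is activated by NAIP proteins that recognise bacterial flagellin and secretion system parts. Nlrc4 (chr17:74426255-74459144, minus strand, 9 exons) gave the lowest counts of the detected members. Its normalized counts ran, again by time, 436, 500, 430, 512, 453, 393, 376 and 255. The first 5 libraries had counting intervals that overlapped, although the ratio of 45 to 0 min was 1.17 (1.03 to 1.33), which was not called. The 120 min library was the lowest. Its ratio to 0 min was 0.585 (0.507 to 0.675) and its ratio to 60 min 0.563 (0.488 to 0.65), both called, and the raw counts behind the first of them were 510 and 315. The slope was -0.38 ± 0.11 per hour (edgeR, adjusted p = 0.0249). The call at 120 min was lost in the 4 libraries with the lower share of Rn45s alone and without the 30 min library, which enters only the size factors and the dispersion (log2 ratio -0.77 with and without it). The size of the slope rested on the 120 min library, without which it was -0.19 (edgeR, adjusted p = 0.208). In the 4 libraries (-0.39, adjusted p = 0.133) and without the 15 min library (-0.37, adjusted p = 0.0621) it missed the threshold at nearly the same size.

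**Figure D1:**
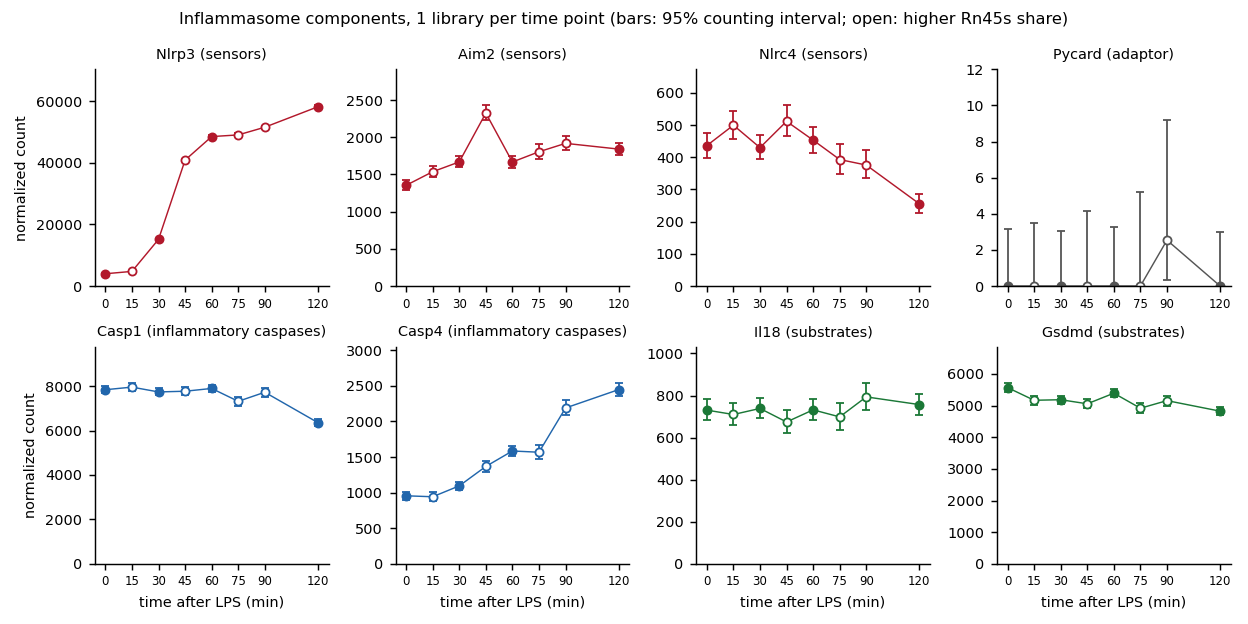
Normalized count (linear axis from 0, its own scale for each gene) of the 8 inflammasome components against time after LPS in min, with 1 library at each time point, bars for the exact 95% counting interval and open points for the 15, 45, 75 and 90 min libraries, in which Rn45s took 12.96% to 20.53% of the counts. Nlrp3 climbs from 3981 to 58263 with its steepest part between 15 and 45 min, Casp4 climbs from 956 to 2447 and Nlrc4 drops to 255 at 120 min, Aim2 has its highest point at 45 min, and Casp1, Il18 and Gsdmd run nearly level.

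Per length of mappable transcript, the mix of the 3 sensor transcripts changed in favour of Nlrp3. At 0 min the level was 8.96 rpkm (reads per kilobase and per 1e6 counts; 8.7 to 9.22) for Nlrp3, 4.34 rpkm (4.13 to 4.56) for Aim2 and 0.838 rpkm (0.767 to 0.914) for Nlrc4. Nlrp3 thus made up 63.4% of the summed rpkm of the 3 sensors at 0 min, 84.7% at 30 min, 91.6% by 45 min and 95.3% in the last library. The share of Aim2 went from 30.7% to 4.29% and that of Nlrc4 from 5.92% to 0.356%, while the sum itself went from 14.1 to 119.6 rpkm. Nlrp3 moved from rank 5893 of 14358 genes with a level above 0 at 0 min to rank 650 of 14692 at 120 min.

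The adaptor was not found. Pycard (chr7:127991373-127993867, minus strand, 3 exons) encodes ASC, which joins sensors with a pyrin domain, such as NLRP3 and AIM2, to caspase-1, and RAW264.7 cells are known for lacking ASC. No count was assigned to Pycard in 7 of the 8 libraries, and 2 counts in the 90 min library, out of 1006657109 counts in all. With no count found, up to 0.0189 cpm (counts per 1e6 counts) could have been missed in the deepest library, at 120 min, and up to 0.0299 cpm in the shallowest, at 75 min. No ratio over time is given at this depth, and the gene was too low to enter the trend test. Such a near-absence is not rare in this table, in which 7893 genes (34.1%) had 2 counts or fewer over all libraries. All 58-base reads of its matched transcript are unique to it.

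The inflammatory caspases, which lie side by side on chromosome 9, differed. Caspase-1 is the protease that the canonical inflammasomes gather, and the product of mouse Casp4, also known as caspase-11, binds LPS that has reached the cytosol and cuts gasdermin D. Casp1 (chr9:5298517-5307281, plus strand, 10 exons) ends 1568 bases before the start of Casp4 (chr9:5308849-5336791, plus strand, 9 exons). Casp1 had normalized counts of 7839, 7956, 7739, 7771, 7896, 7317, 7726 and 6357. Its ratios to 0 min lay between 0.811 and 1.01 and none was called, with the 120 min library the lowest (0.811, 0.787 to 0.836). On the log2 scale this last ratio was -0.302, and -0.504 with total counts as the scale, which was not called either. The slope was -0.13 ± 0.04 per hour (edgeR, adjusted p = 0.0364), and -0.05 without the 120 min library (adjusted p = 0.28), on which its size rested. Without the 15, 30 or 75 min library it missed the threshold with the slope still at -0.13 (adjusted p = 0.0737, 0.0611 and 0.0508), as it did at -0.16 in the 4 libraries with the lower share of Rn45s alone (adjusted p = 0.116).

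Casp4, in contrast, rose between 0 and 120 min, though not at every step. From 0 to 120 min its normalized counts were 956, 942, 1095, 1368, 1585, 1567, 2189 and 2447. The 0 and 15 min libraries were alike within counting error, the 60 and 75 min libraries were as well, and the 90 and 120 min libraries were the highest. The ratio to 0 min was 1.66 (1.54 to 1.79) at 60 min, 2.29 (2.12 to 2.47) by 90 min and 2.56 (2.39 to 2.74) at 120 min, all called, whereas 1.64 (1.51 to 1.78) at 75 min was not. The call at 60 min, where the log2 ratio was 0.73, was lost with total counts as the scale (0.63). It was also lost without the 30 min library and in the 4 libraries with the lower share of Rn45s alone, although the log2 ratio was 0.73 in both. The slope was 0.75 ± 0.06 per hour (edgeR, adjusted p = 9.44e-05), which stayed past the threshold with every library left out in turn (highest adjusted p = 0.000674) and in the 4 libraries with the lower share of Rn45s alone (adjusted p = 0.0225). Per length, Casp1 exceeded Casp4 7.85-fold at 0 min (48.6 against 6.19 rpkm) and 2.49-fold at 120 min (34.2 against 13.8 rpkm). Nlrp3 and Casp1 changed places: the level of Casp1 was 5.42 times that of Nlrp3 at 0 min, and that of Nlrp3 3.33 times that of Casp1 at 120 min.

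The 250 bases before the start of each caspase gene are shown for comparison of these neighbours, with capitals for matches to the same kappa B motif (RefSeq windows, GRCm38.p6, plus strand, chr9:5298267-5298516 for Casp1 and chr9:5308599-5308848 for Casp4).
Casp1: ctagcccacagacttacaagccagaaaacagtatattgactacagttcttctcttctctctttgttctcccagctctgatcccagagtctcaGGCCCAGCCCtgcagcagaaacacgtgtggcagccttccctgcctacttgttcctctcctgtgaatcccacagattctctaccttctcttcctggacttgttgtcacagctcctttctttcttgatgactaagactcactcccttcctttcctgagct
Casp4: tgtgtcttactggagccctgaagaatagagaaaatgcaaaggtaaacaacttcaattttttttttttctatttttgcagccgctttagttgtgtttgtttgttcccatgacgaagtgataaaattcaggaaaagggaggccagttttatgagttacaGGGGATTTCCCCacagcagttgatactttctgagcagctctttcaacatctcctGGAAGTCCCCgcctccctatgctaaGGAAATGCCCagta
Casp1 holds 1 match, from position -158. Casp4 holds 3 separate stretches, from positions -93, -39 and -14, and 8.44% of all windows have at least as many. The stretch at -93 has 12 bases, GGGGATTTCCCC, a palindromic arrangement but for its centre, in which 4 overlapping matches on both strands were found. These 12 bases occur in 3 of the 32851 windows, of which the overlapping windows of Casp4 are a pair. The search was made after the sequence was seen, and no other run of 12 bases was searched for comparison. The count thus does not set Casp4 apart. No match to the kappa B motif was found in the windows of Aim2, Nlrc4, Pycard and Il18, and Gsdmd has no window in the table. The window of Aim2 (chr1:173420354-173420653) lies inside the span given above for the gene, and the start of that span was not searched. Also searched on both strands were the AP-1 site TGANTCA, which 7.81% of all windows hold, and the cyclic AMP response element TGACGTCA, which 1.79% hold. An interferon response element like motif, in which GAAA is repeated after any 2 bases, is in 3.44% of all windows. The letters TATAAA are in 13.6%, and their match on the other strand of Il18 was the only match to these 4 motifs among the 9 windows of the members. A match is a string of letters and does not show that a factor binds.

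**Figure D2:**
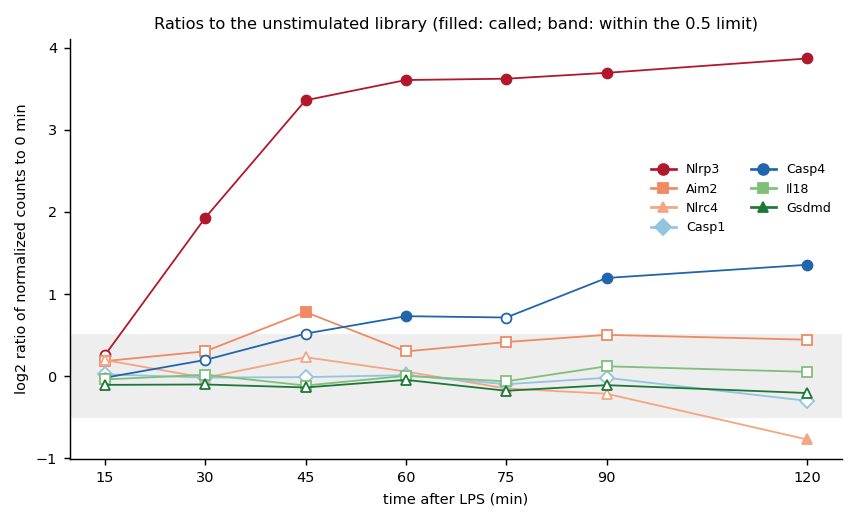
Log2 ratio of normalized counts to the 0 min library (y axis) against time after LPS in min for the 7 detected inflammasome components, with filled symbols for called libraries and a grey band for ratios within 0.5 of 0. Nlrp3 is filled from 30 min on and ends at 3.87, Casp4 is filled at 60, 90 and 120 min and ends at 1.36, Aim2 is filled only at 45 min (0.78) and Nlrc4 only at 120 min (-0.77), and Casp1, Il18 and Gsdmd stay inside the band.

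The substrates stayed nearly level. Il18 (chr9:50554700-50581841, plus strand, 6 exons) encodes the precursor of a cytokine that drives interferon gamma production, and unlike IL-1 beta it is known to be made in unstimulated macrophages. Il18 had, over the time course, normalized counts of 731, 710, 739, 674, 732, 698, 793 and 757. No library was called, the ratios to 0 min lay between 0.923 and 1.09, and the interval at 120 min was 0.943 to 1.14. Gsdmd (chr15:75862144-75867408, plus strand, 11 exons) encodes gasdermin D, whose freed amino-terminal part opens pores in the plasma membrane. For Gsdmd the normalized counts were 5567, 5167, 5184, 5055, 5390, 4916, 5156 and 4823. The 0 min library was the highest and the 120 min library the lowest, at a ratio of 0.866 (0.836 to 0.898), which was not called. As a log2 ratio this was -0.207, against -0.409 with total counts as the scale, also not called. Neither slope passed the threshold: it was 0.04 ± 0.05 per hour for Il18 (edgeR, adjusted p = 0.558) and -0.08 ± 0.03 per hour for Gsdmd (adjusted p = 0.0823).

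Counted together, no member was called at 15 min, where 0.194% of all genes were called higher and 0.108% lower. At 30 min 1 member was called higher (Nlrp3; 0.76% of all genes) and none lower (0.134%). At 45 min 2 were higher (Nlrp3 and Aim2; 2.51%) and none lower (0.994%), and at 60 min 2 were higher (Nlrp3 and Casp4; 2.3%) and none lower (1.58%). At 75 min 1 was higher (Nlrp3; 3.15%) and none lower (2.29%), and at 90 min 2 were higher (Nlrp3 and Casp4; 3.84%) and none lower (2.93%). At 120 min 2 were higher (Nlrp3 and Casp4; 5.17%) and 1 was lower (Nlrc4; 4.53%). With total counts as the scale the same members were called at 120 min, while the split of all genes went from 1196 higher and 1049 lower to 677 and 1250. The members called higher made up a larger share of the 8 than the called genes of the whole table from 30 min on, but with so few genes this is given as a description. The whole table, here and for the extrema below, includes 6176 genes without a count in any library, which could not be called. By the study's definition of maxima and minima over all 28 pairs of libraries, 4 of the 8 members had an extremum (Nlrp3 and Casp4 a maximum at 120 min, Aim2 a maximum at 45 min and Nlrc4 a minimum at 120 min), against 12.5% of all genes. In the 0, 30, 60 and 120 min libraries alone, Nlrp3 and Casp4 kept theirs and Nlrc4 did not, and the library in which Aim2 was highest is not among these. By the slope over time, 2 of the 7 members tested rose (Nlrp3 and Casp4), against 22.4% of 12779 genes, and 2 fell (Nlrc4 and Casp1), against 23.2%, so the share of members with a trend was close to that of all genes.

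**Figure D3:**
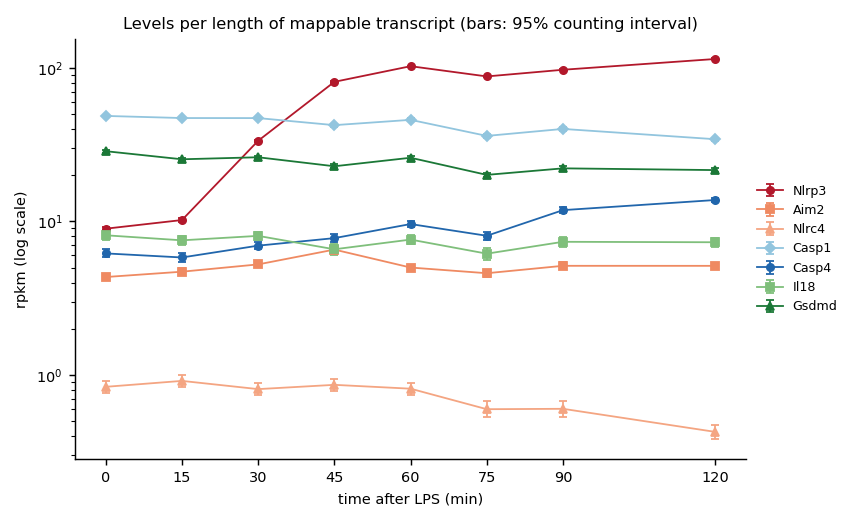
Level in rpkm (log axis) of the 7 detected inflammasome components against time after LPS in min, with bars for the exact 95% counting interval, which are mostly smaller than the symbols. At 0 min Casp1 (48.6) and Gsdmd (28.6) are the highest and Nlrc4 (0.838) the lowest; Nlrp3 crosses Gsdmd by 30 min and Casp1 by 45 min and ends at 114 rpkm.

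The order of levels at 0 min was Casp1 with 48.6 rpkm (47.6 to 49.6), Gsdmd with 28.6 (27.9 to 29.3), Nlrp3 with 8.96 (8.7 to 9.22), Il18 with 8.12 (7.58 to 8.68), Casp4 with 6.19 (5.83 to 6.56), Aim2 with 4.34 (4.13 to 4.56) and Nlrc4 with 0.838. Of the neighbours in this order, Nlrp3 and Il18 lay closest, with intervals that narrowly miss each other. Among the 14358 genes with a level above 0, Casp1 stood above 88.8%, Gsdmd above 81.9%, Nlrp3 above 59.0% and Nlrc4 above 31.2%. At 120 min the order was Nlrp3 with 114 rpkm (113.2 to 114.8), Casp1 with 34.2 (33.5 to 35), Gsdmd with 21.6 (21 to 22.1), Casp4 with 13.8 (13.3 to 14.3), Il18 with 7.31 (6.85 to 7.8), Aim2 with 5.13 (4.92 to 5.35) and Nlrc4 with 0.426 (0.38 to 0.476). Casp4 thus passed Il18, with intervals apart. These rpkm values are relative to total counts, Rn45s included.

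The members with an extremum were set beside the genes with the most similar course (Pearson's r of log2 normalized counts over the 8 libraries, among 1568 genes with a mean of at least 100 and a log2 range of at least 1). The r values are a description over 8 libraries that share their scaling and their Rn45s content. The genes closest to Nlrp3 were Cdkn1a (r = 0.999), an inhibitor of cyclin-dependent kinases, Kdm6b (0.996), a histone demethylase, and Dusp5 (0.995), a phosphatase of ERK. Their ratios of 120 to 0 min differed widely in size, being 5.22 for Cdkn1a, 36.2 for Kdm6b and 72.1 for Dusp5, against 14.6 for Nlrp3. Those closest to Casp4 were Lilrb4 (0.991), an inhibitory receptor, Cd274 (0.991), which encodes the checkpoint ligand PD-L1, and Rap1b (0.991), a small GTPase. Aim2 lay closest to Slmap (0.986), Nfat5 (0.984), a transcription factor, and Pstpip2 (0.981), and Nlrc4 to Pram1 (0.987), Per3 (0.985), a part of the circadian clock, and Dapk1 (0.982), a kinase.

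Around the 8 members, 40 further genes of the inflammasome pathway were examined, of which 8 were called higher and 1 lower at 60 min (2.3% and 1.58% of all genes) and 9 higher and 7 lower at 120 min (5.17% and 4.53%). The median log2 ratio at 120 min of the 35 genes whose normalized counts averaged 10 or more was -0.04, and that of all such genes was -0.01. By the slope over time, 11 of the 36 genes tested rose and 10 fell (edgeR, adjusted p under 0.05), near the shares of all genes (22.4% and 23.2%).

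Of 10 other sensors, only Mefv was called higher. It encodes pyrin, a sensor of the effects of certain bacterial toxins. Over time it had 40.2, 30.5, 31.9, 105, 408, 682, 771 and 702 normalized counts. The libraries up to 30 min were low and those from 60 min on high, with a ratio to 0 min of 17.5 (13 to 23.9) at 120 min. Nlrp1b, the target of anthrax lethal factor, was called lower at 120 min with 0.468 (0.443 to 0.494) of its level at 0 min, and Nlrp10 likewise with 0.321 (0.299 to 0.345). The NAIP partners of Nlrc4 were not called at either time, with ratios at 120 min of 0.794 (0.759 to 0.831) for Naip2, 0.811 (0.736 to 0.894) for Naip5 and 1.01 (0.857 to 1.19) for Naip6. By the slope over time Naip2 fell (-0.19 per hour, edgeR, adjusted p = 0.0168). Nlrp1b and the Naip genes have close paralogs, and since reads that matched more than 1 gene had been discarded, their counts are uncertain.

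Among 15 activation partners, 3 were called higher and 4 lower at 120 min. The 3 were guanylate-binding proteins, which are known to open bacteria-containing vacuoles and to help caspase-11 reach LPS, and all were low. Gbp3 went from 35.9 to 247 normalized counts (6.88-fold, 4.97 to 9.74), Gbp2 from 6.84 to 76.2 (11.1-fold, 5.42 to 26.5) and Gbp5 from 2 raw counts to 23 (10.9-fold, 2.69 to 95.3). Txnip, a thioredoxin inhibitor reported to bind NLRP3, had 31539, 32374, 17100, 6950, 4959, 6572, 6399 and 6899 normalized counts. The 0 and 15 min libraries were the highest and the 60 min library the lowest (ratio to 0 min 0.157, 0.153 to 0.162). Mavs, an adaptor on mitochondria (0.449, 0.421 to 0.478), Fadd, an adaptor of death receptors (0.568, 0.529 to 0.609), and Panx1, a channel for ATP (0.618, 0.591 to 0.647), were called lower at 120 min. The call of Panx1 was lost without the 30, 45, 60 or 75 min library and in the 4 libraries with the lower share of Rn45s alone, and with adjusted p-values those of Panx1, Fadd and Gbp5 were lost. Nek7, the kinase that NLRP3 needs for assembly, was not called, with a ratio of 0.898 (0.877 to 0.92). The ATP receptor P2rx7 and Casp8 were not called either, but both fell by the slope over time (-0.31 per hour, edgeR, adjusted p = 0.00872, and -0.19 per hour, adjusted p = 0.0109). For P2rx7 the ratio at 120 min was 0.668 (0.635 to 0.702), and it was called lower there with total counts without Rn45s as the scale.

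Of 7 restraining factors, 3 were called higher at 120 min and none lower. With total counts as the scale, or with adjusted p-values, Il1rn alone of these was called. Il1rn encodes the IL-1 receptor antagonist and went from 1110 normalized counts at 0 min to 2750 at 60 min and 4816 at 120 min (4.34-fold, 4.09 to 4.61). Il18bp, which encodes the protein that binds and blocks IL-18, went from 44.5 to 98.9 normalized counts (2.22-fold, 1.59 to 3.14) while Il18 itself was not called. Pydc3, a pyrin-domain-only gene, was 1.97-fold (1.61 to 2.41) at 120 min. Trim30a, which is known to restrain NLRP3, went the other way without being called (0.675, 0.596 to 0.764). Casp12, which lies 8651 bases beyond Casp4, had at most 1 count in a library, so it was not detectable at this depth.

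Of 8 downstream products, Il1a and Il1b were called higher at both times. Il1b, the substrate of caspase-1 that is not among the 8 members, had 38.5 normalized counts unstimulated and 1938 at 45 min, then 9961 at 60 min and 108097 in the last library. Il1a had only 5 raw counts at 0 min, and its ratio at 120 min was 3157 (1353 to 9724). Il18r1, a chain of the IL-18 receptor, was called higher at 60 min from 3 raw counts to 16 (5.55-fold, 1.59 to 29.7) and not at 120 min, a call that was lost with adjusted p-values and in the 4 libraries with the lower share of Rn45s alone. Gsdme, another gasdermin, listed under its older symbol Dfna5, was called lower at 120 min (0.435, 0.37 to 0.51), and Ninj1, which ruptures the plasma membrane of dying cells, was not called (1.35, 1.28 to 1.43) but rose by the slope over time (0.26 per hour, edgeR, adjusted p = 0.00741).

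The sensor, the caspase and the substrate reached their levels at different times. Nlrp3 had 70.3% of its 120 min normalized count at 45 min and 83.4% at 60 min. For Casp4 these shares were 55.9% and 64.8%, from 39.1% at 0 min. Il1b stood at 1.79% at 45 min, 9.21% by 60 min and 41.9% at 90 min, and Il1a at 3.42%, 11.1% and 42.5%. The Nlrp3 transcript thus had 83.4% of its highest measured level at 60 min, when Il1b was at 9.21%. Whether any of these transcripts had reached its peak by 120 min cannot be told from these libraries.

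**Figure D4:**
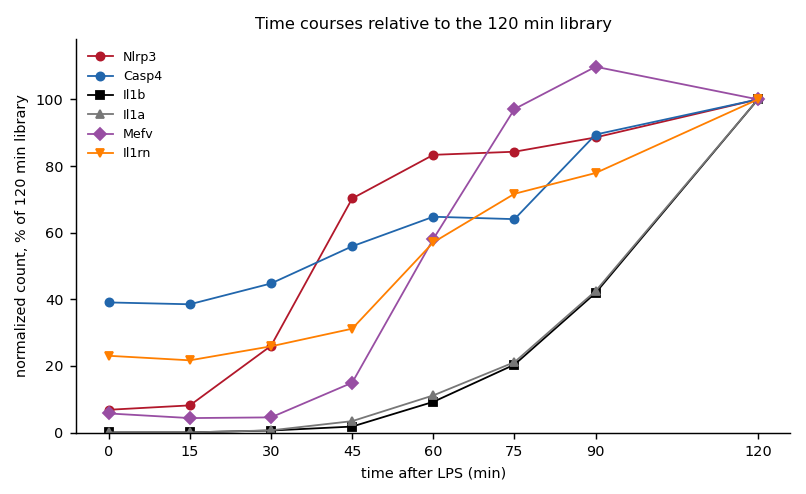
Normalized count as a percentage of the 120 min library (linear axis) against time after LPS in min for Nlrp3, Casp4, Il1b, Il1a, Mefv and Il1rn, 1 library per point. At 45 min Nlrp3 is at 70.3% and Casp4 at 55.9%, Mefv at 15.0% and Il1b and Il1a at 1.79% and 3.42%, and Mefv alone passes 100% before 120 min (110% at 90 min).

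**Figure D5:**
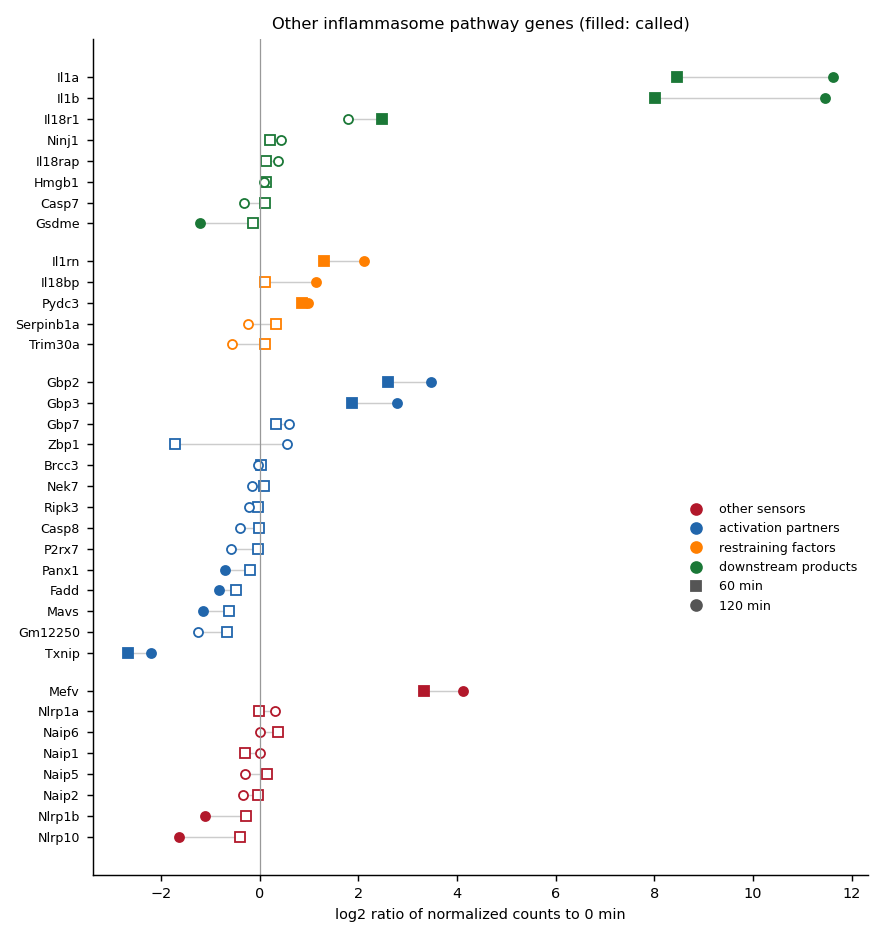
Log2 ratio of normalized counts to 0 min (x axis) for the 35 other pathway genes whose mean reached 10, grouped by role and ordered within a role by the 120 min value, with squares for 60 min, circles for 120 min and filled symbols for called libraries. Il1a and Il1b lie farthest to the right (11.62 and 11.46 at 120 min), Txnip farthest to the left (-2.67 at 60 min), and no restraining factor is filled on the left.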

How the data were processed

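The authors sequenced RNA depleted of ribosomal RNA from 8 RAW264.7 cultures, 1 library per time point. They mapped 58-base reads with Bowtie to RefSeq transcripts of mm10 (GRCm38), with at most 2 mismatches. Reads that matched more than 1 gene symbol were discarded. The submitters' processing notes name CASAVA 1.8.2 and DESeq 1.10.1, and the Bowtie version is not given in the sources used here. The deposited values are raw read counts per gene symbol, without normalization, in 1 table of 23143 rows. All rows name a gene and no column was left unused.

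Size factors (median of ratios), the blind parametric dispersion of DESeq and its exact negative binomial test of 2 libraries were recomputed from them with scipy 1.17.1, numba 0.67.0, numpy 2.4.6 and pandas 2.3.3 under Python 3.11.15, with a log2 ratio beyond 0.5 and an unadjusted p under 0.05 as the call rule. A slope over time was tested across all genes with at least 10 counts in at least 1 library by edgeR 4.0.16 (quasi-likelihood, TMM factors, R 4.3.3), with Benjamini-Hochberg adjustment. Its error is the spread of the 8 cultures around a straight line, drawn by edgeR toward that of genes with similar counts. DESeq2 1.42.0 was an alternative. Ratios carry exact conditional binomial 95% intervals, rpkm and normalized counts exact Poisson ones, and the limit where no read was found is 3 counts per library. Rpkm values use the number of unique 58-mers of GENCODE vM21 transcripts matched by RefSeq accession. No rpkm is given for Pycard, whose matched transcript (3800 bases) exceeds the RefSeq span of the gene (2495 bases). Gene positions and promoter windows come from RefSeq (GRCm38), and strands and exon numbers of the members from GENCODE vM21. A window was found for 7 of the 8 members. The code was tested on simulated data. Figures were drawn with matplotlib 3.10.9.

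The members, the gene lists and the alternatives were chosen with earlier results of these data known. Named besides the 8 members were pathway genes called at 60 or 120 min and, for each member with an extremum, the 3 genes with the most similar course. Other genes named (Naip2, Naip5, Naip6, Nek7, P2rx7, Casp8, Trim30a, Ninj1, Casp12 and a gene that overlaps Aim2) were picked after their values were seen. Since each time point has 1 library, ratios of libraries were not checked against replicates.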

Additional observations from a re-analysis of the deposited data

How the results depend on the processing

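Nlrp3 was called higher at 60 and 120 min under every alternative run, and Casp4 at 120 min. Members called higher at 60 min numbered 1 in place of 2 with total counts, total counts without Rn45s, Benjamini-Hochberg adjustment, a log2 limit of 1 and the 4 libraries with the lowest share of Rn45s alone (added after the data were seen), and 1 to 2 with a library left out; Casp4 was the gene lost each time. Members called lower at 120 min numbered 0 in place of 1 with Benjamini-Hochberg adjustment, with a limit of 1 and in the 4 libraries, and 0 to 1 with a library left out. Members with an extremum numbered 2 in place of 4 with a limit of 1 and in the 4 libraries (which leave out the library of Aim2's maximum), and 3 to 4 with a library left out. Members with a rising trend numbered 2, with 2 to 3 when a library was left out (Aim2 joined without the 45 min library) and 1 in the 4 libraries; falling trends numbered 2, with 1 for the rank of time (Nlrc4), 2 with DESeq2, an Rn45s term or no filter, 0 to 2 with a library left out and 0 in the 4 libraries. Scaling by total counts shifted the median log2 ratio of all genes by -0.10 at 60 min and -0.20 at 120 min, and reversed values near 0: at 60 min Nlrc4 to -0.0405, Casp1 to -0.0848 and Il18 to -0.0927, and Il18 at 120 min to -0.15. Without Rn45s these were -0.0455, -0.0899, -0.0978 and -0.142, and with TMM factors Casp1 and Il18 at 60 min came to -0.00443 and -0.0123.

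Over all genes, 1196 were called higher and 1049 lower at 120 min. These were 677 and 1250 with total counts, 755 and 1435 without Rn45s, 603 and 487 with adjustment, 761 and 657 with a limit of 1, 3755 and 3080 by a log2 ratio beyond 0.5 alone, and 1095 to 1202 and 970 to 1076 with a library left out. Rising and falling trends numbered 1403 and 1118 in the 4 libraries, against 2863 and 2967, and 2265 to 3003 and 2444 to 3021 with a library left out. Pathway genes called lower at 60 min numbered 2 in place of 1 with both total count scales and 5 by the ratio alone, which gave 11 in place of 7 at 120 min, and 1 to 2 with a library left out. Apart from the effect of fewer libraries or a stricter rule, the cause of these changes was not tested. No paired analysis was possible because the time points share no replicate numbers beyond 1. Depth limits Pycard, Gbp5, Il18r1 and Casp12, and Nlrc4 rests on 279 to 525 counts a library.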

Other observations

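Beyond Aim2 on chromosome 1, the next genes whose current RefSeq symbol is in the table are Ifi204 and Mndal. Rows under older symbols were not placed, so nearer genes of the table may have been missed. Ifi204 and Mndal belong to the same family of DNA-binding HIN domain proteins as Aim2 and were looked at after their values were seen. From 0 to 120 min, Ifi204 had 612, 556, 621, 579, 808, 1111, 1512 and 2033 normalized counts, with a ratio of 3.32 (3.06 to 3.62) at 120 min. Mndal went from 2805 to 5430 normalized counts between 0 and 120 min, 1.94-fold (1.86 to 2.02), with 2776 at 45 min. Both were called higher at 120 min and had their highest count there, whereas Aim2 was highest at 45 min. Ifi204 lies 281253 bases and Mndal 391175 bases from the span annotated for Aim2.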
